A study of Mus musculus with 8 samples.

Results

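The 1000 longest autosomal regions in a table of chromatin accessibility counts are described here. They were chosen by length alone, as the end minus the start of each distinct region on chromosomes 1 to 19, and they make up 2.20% of the 45402 distinct autosomal regions listed. Their lengths run from 17283 to 797085 bp, with a median of 27588 bp, and together they cover 44284093 bp, or 26.8% of the length of all autosomal regions. The last 3 regions inside the limit, at Astn1, Ptprm and Agap1, are 17319, 17309 and 17283 bp long, and the first 3 outside it, at 1810013L24Rik, Fam155a and Cwc22, are 17275, 17241 and 17237 bp long.

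The counts come from ATAC-seq, in which a transposase cuts accessible DNA and leaves sequencing adapters there. All cells were flow sorted from C57BL/6 mice carrying a red fluorescent protein reporter at Foxp3, and cells of 3 mice were pooled for each library. The 4 groups of 2 libraries are reporter-positive regulatory T cells (Tregs) of male visceral adipose tissue (VAT), Tregs of female VAT, Tregs of male spleen, and reporter-negative CD4+ T cells of male VAT. The series asks how Treg chromatin differs between the sexes and between fat and spleen. Since the spleen libraries are labelled male, sex and tissue cannot be told apart between female VAT and spleen. No age is given, and p-values measure the spread between pooled libraries, which may be technical.

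Tregs are CD4+ T cells that restrain immune responses, and the transcription factor Foxp3 defines them. Treg populations in visceral fat are known for a programme of their own, which includes the receptor for interleukin 33. In ATAC-seq, promoters and enhancers in use appear as short, dense sites, whereas closed chromatin between them collects a thin layer of cuts. Density, given here as CPM per kb, which is the count scaled to the library total and divided by region length, helps to tell these apart.

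For sequence context, the 300-base promoters (250 bases before to 50 after the transcription start) of 3 of the longest regions are set beside those of the 2 immune genes of the gene lists that have a member. They are RefSeq sequences on GRCm38.p6, the build of the count table, written along the gene's strand, and capitals mark each CG dinucleotide.
Ajap1, chr4:153482781-153483080, minus strand: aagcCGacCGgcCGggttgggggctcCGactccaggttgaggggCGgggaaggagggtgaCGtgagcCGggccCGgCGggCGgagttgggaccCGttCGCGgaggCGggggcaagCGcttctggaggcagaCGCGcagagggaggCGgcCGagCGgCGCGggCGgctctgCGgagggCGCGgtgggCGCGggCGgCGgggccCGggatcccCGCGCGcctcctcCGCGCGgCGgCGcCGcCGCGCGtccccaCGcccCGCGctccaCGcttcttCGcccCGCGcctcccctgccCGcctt
Tafa5, chr15:87544049-87544348, plus strand: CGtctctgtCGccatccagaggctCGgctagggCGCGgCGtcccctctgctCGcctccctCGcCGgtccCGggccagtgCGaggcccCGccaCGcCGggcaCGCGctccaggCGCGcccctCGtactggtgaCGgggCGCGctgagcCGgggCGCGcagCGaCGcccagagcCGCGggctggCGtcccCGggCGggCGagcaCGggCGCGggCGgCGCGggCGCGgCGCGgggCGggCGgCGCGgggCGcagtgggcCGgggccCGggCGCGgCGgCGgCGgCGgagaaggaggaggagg
Rbfox1, chr16:5884543-5884842, plus strand: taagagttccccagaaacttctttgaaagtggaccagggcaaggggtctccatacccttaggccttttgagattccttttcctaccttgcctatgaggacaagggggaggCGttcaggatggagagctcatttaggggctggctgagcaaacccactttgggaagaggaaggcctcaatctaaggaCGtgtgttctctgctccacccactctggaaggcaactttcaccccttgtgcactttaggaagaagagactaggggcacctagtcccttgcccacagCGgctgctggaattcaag
Junb, chr8:84978699-84978998, minus strand: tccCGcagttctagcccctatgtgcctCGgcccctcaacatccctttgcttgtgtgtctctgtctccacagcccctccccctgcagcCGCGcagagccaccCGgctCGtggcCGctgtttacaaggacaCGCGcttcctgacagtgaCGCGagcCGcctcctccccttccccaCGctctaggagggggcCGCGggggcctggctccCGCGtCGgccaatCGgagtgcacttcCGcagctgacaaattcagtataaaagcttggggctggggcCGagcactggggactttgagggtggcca
Tnfrsf1b, chr4:145246821-145247120, minus strand: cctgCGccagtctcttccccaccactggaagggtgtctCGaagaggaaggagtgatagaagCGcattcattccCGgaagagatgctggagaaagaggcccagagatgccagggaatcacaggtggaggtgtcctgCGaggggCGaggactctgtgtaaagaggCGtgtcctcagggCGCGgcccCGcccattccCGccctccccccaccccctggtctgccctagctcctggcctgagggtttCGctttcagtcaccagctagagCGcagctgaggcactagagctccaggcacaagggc
These windows hold 51, 56, 3, 21 and 13 CG dinucleotides in the order shown. Ajap1 encodes a protein of adherens junctions, Tafa5 (listed in the table under its older symbol Fam19a5) a secreted protein of the nervous system, and Rbfox1 a neuronal splicing regulator. Junb encodes a subunit of the AP-1 transcription factor, and Tnfrsf1b encodes TNF receptor 2, which is present on many Tregs.

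The members also hold miRNA genes. Of the mouse miRNAs in the RefSeq table, 16 mature sequences of 10 miRNA genes lay within members, each with a different seed. Those of the blood cell miRNA locus Mir142 and of the region with the most counts, at Mir101c, are shown 5′ to 3′ with the seed (bases 2 to 8) in capitals.
mmu-miR-142a-5p, chr11:87756867-87756887, plus strand: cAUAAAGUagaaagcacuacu
mmu-miR-142a-3p, chr11:87756903-87756925, plus strand: uGUAGUGUuuccuacuuuaugga
mmu-miR-142b, chr11:87756906-87756925, minus strand: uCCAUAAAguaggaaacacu
mmu-miR-101c, chr9:3038680-3038698, minus strand: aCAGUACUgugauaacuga
The others were those of miR-488, miR-7210, miR-6393, miR-690, miR-5709, miR-7001 and miR-7043.

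The Foxp3 locus separated Tregs of male VAT from CD4 cells at most, but not all, of its regions, and spleen Tregs less fully. Of 6 regions overlapping Foxp3, 4 were higher in male VAT Tregs than in CD4 cells at an adjusted p below 0.05 (edgeR). One of them, chrX:7582208-7585993, had 18.8 and 14.0 CPM in Tregs of male VAT, 27.1 and 32.9 in those of female VAT and 13.6 in each spleen library, against 1.54 and 2.16 in CD4 cells. The region with the most counts, chrX:7572009-7576644, did not separate them, with 42.7 and 24.6 CPM in Tregs of male VAT, 57.3 and 52.3 in those of female VAT and 27.6 and 38.9 in spleen Tregs, against 32.4 and 36.2 in CD4 cells (male VAT over CD4, log2 fold change -0.01; edgeR, adjusted p = 0.986). At the small region chrX:7565611-7565716 both spleen Treg libraries, at 0.121 and 0.0597 CPM, lay below both CD4 libraries, at 0.770 and 0.144. At chrX:7567611-7567760, which was called, spleen Treg replicate 2, at 0.896 CPM, lay below CD4 replicate 1, at 0.963. Regions of the Y-linked gene Uty summed to 11.2 to 19.04 CPM in the 6 male libraries and to 0 in both female ones. No region of the marker genes of T cells, B cells, myeloid cells, CD8 and NK cells, adipocytes or stromal and endothelial cells was a member. Library depth over the 45709 regions that passed the low-count filter was 5722254 to 15798875 counts, and all 1000 members passed that filter. The lowest count of any member in any library was 231, and the median count of the members was 705 to 1823.5 per library.

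The longest regions were long rather than dense. Their median density, taken over the 4 group means, was 4.20 CPM per kb, with 5th and 95th percentiles of 3.54 and 5.63. Autosomal regions under 1000 bp had a median of 17.0 CPM per kb, and the classes of intermediate length had medians of 3.73 to 4.80. The regions under 1000 bp had a median length of 123 bp. At that length the low-count filter removes sparse regions, and it kept 15706 of 16417. The part of length and filter in the higher density of short regions was not tested. Over the summed length of all regions kept, the density was 6.00 CPM per kb. Only 6 members exceeded the median of the regions under 1000 bp, and the medians of the intermediate classes also lay below it. Whether the members are open was not tested, and they are called longest regions below. Within the members, density and length had a Spearman rho of 0.40 over 1000 regions that share the same 8 libraries. The median was 4.61 CPM per kb in the 250 longest and 3.99 in the 250 shortest of them. At the length limit, the 3 regions inside had 3.74, 4.13 and 5.02 CPM per kb and the 3 outside had 4.05, 3.77 and 3.55.

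**Figure D1:**
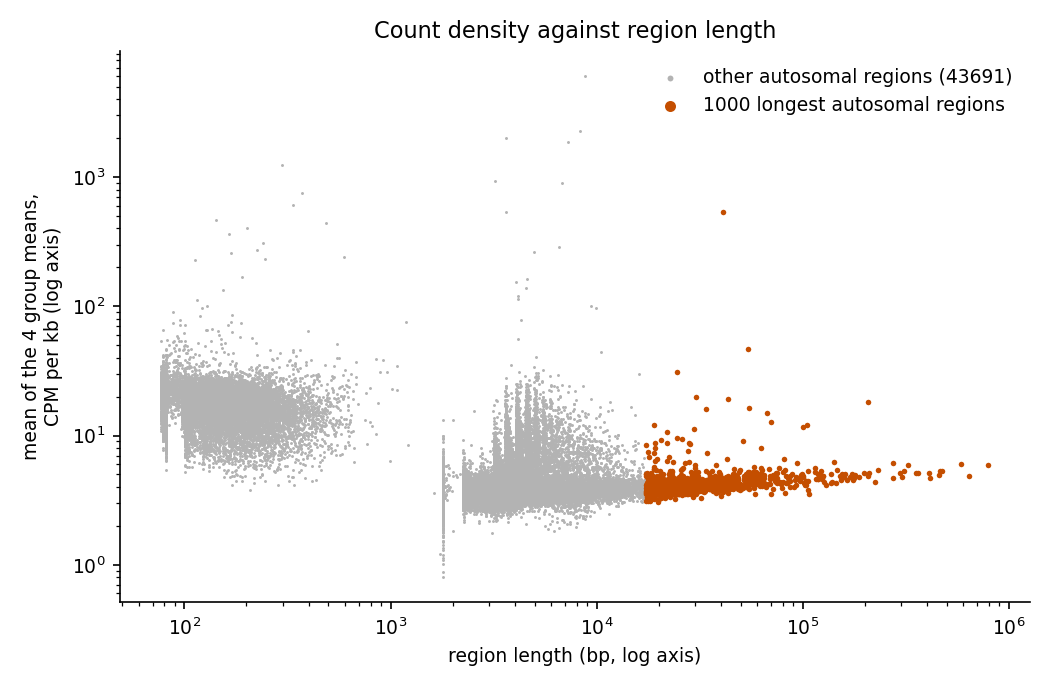
Density of counts in CPM per kb (vertical log axis, mean of the 4 group means) against region length in bp (horizontal log axis), with each autosomal region as a point and the 1000 longest in orange. The longest regions form a narrow band around 4.20 CPM per kb, below the 17.0 of regions under 1000 bp, and 1 member stands at 537.

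The longest region of all covers Ajap1 and the land around it (chr4:152944716-153741801, 797085 bp). Its density was 6.13 and 6.85 CPM per kb in Tregs of male VAT, 6.25 and 5.49 in those of female VAT, 5.24 and 4.94 in spleen Tregs, and 7.14 and 5.66 in CD4 cells. Both male VAT libraries lay above both spleen libraries, while they overlapped the female and the CD4 libraries. Rbfox1 followed with 3 of the 12 longest regions, of 644713, 458261 and 356699 bp. The largest of these had 4.46 and 5.51 CPM per kb in Tregs of male VAT, 4.89 and 4.32 in those of female VAT, 4.64 and 4.38 in spleen Tregs, and 5.54 and 4.93 in CD4 cells, and no group stood clear of male VAT. The region at Tafa5 (587799 bp) had 6.33 and 7.37 CPM per kb in Tregs of male VAT, 6.46 and 5.52 in those of female VAT, 5.41 and 5.06 in spleen Tregs, and 6.80 and 5.58 in CD4 cells. Of the rest of the 12, 1 was assigned to Irx5 (a homeobox factor) with 4933436C20Rik, and its only transcription start was that of Crnde. The others were assigned to Myt1l (a neuronal zinc finger factor), Auts2 (a neurodevelopmental gene) and Kcnma1 (a calcium-activated potassium channel). Dpp6 (an accessory subunit of potassium channels) and the cadherin genes Cdh26 and Cdh4 completed the list. None of the 12 was called in any comparison by the test described below.

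The same genes recurred. The table assigns 508 gene symbols to the members, of which 154 are predicted genes, and 204 symbols had 2 or more members. Ptprg, a receptor tyrosine phosphatase, had 16 members. Auts2 had 15, and Rbfox1, the glutamate receptor subunit Grin2a and the ubiquitin ligase gene Park2 had 14 each. Tox3, Csmd1 and Tmem132d, which are known mainly from the nervous system, had 13 each. The median density over each gene's members ran from 3.96 CPM per kb at Tox3 to 4.75 at Grin2a. For 511 members another member lay within 10000 bp, so neighbours often come from 1 gene and are not independent. Chromosome 8 held 107 members, chromosome 5 held 103 and chromosome 14 held 96, whereas chromosome 10 held 2 of its 2248 listed regions and chromosome 19 held none of its 864.

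The members were set beside shorter regions by position, as a description with no test. Of 943 members whose assigned gene was found in the RefSeq table, 563 (59.7%) overlapped such a gene, and the genes they overlapped had a median length of 323965 bp, against 193581 bp for the next 1000 regions by length and 44677 bp for regions of 3.5 to 6 kb. A transcription start lay in 267 members (26.7%), but for their length starts were sparse: 1.07 per 100 kb in members, against 2.46 in the next 1000 regions by length, 2.65 in all regions from 10000 bp to the limit and 14.4 in regions of 3.5 to 6 kb. The 477 RefSeq promoters that lay in members had a median of 6 CG dinucleotides and 50.7% G+C, against 22 and 61.7% for promoters in the other autosomal regions of 1000 bp or more. All promoters in the table had medians of 7 and 52.7%, close to the members, and those in no listed region 4 and 48.7%. The AP-1 motif TGANTCA, searched on both strands as its reverse complement has the same form, was found in 7.97% of the promoters in members, in 4.45% of those in the other regions of 1000 bp or more, and in 7.81% of all promoters in the table. The windows of Junb and Tnfrsf1b printed above do not hold these letters.

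Few of the genes on the lists had a member. Of 200 genes on 9 lists of T cell genes, 198 had an autosomal region and 2 of them had a member, namely Junb and Tnfrsf1b. Of 30 genes on a list of markers of other cell types, 23 had an autosomal region and 0 had a member, while 2.73% of all symbols with an autosomal region had one. None of Il2ra, Ctla4, Ikzf2, Icos, Bach2, Tcf7, Gata3, Prdm1, Il10, Il1rl1, Klrg1 and Tnfrsf9 had a member. The region at Gata3, a factor of type 2 T cells and VAT Tregs, that came closest was 11462 bp long and stood at length rank 1828, and that at Ikzf2, which encodes the Treg factor Helios, was 10813 bp long at rank 2002. The longest region at Il1rl1, the receptor for interleukin 33, was 401 bp.

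A small number of members were dense. At 24 of them the density reached at least double the members' median. The densest by far was the region at Mir101c (chr9:3000028-3041064), with 537 CPM per kb, and it held 1.28 to 3.42% of the counts of each library. Next came 2700054A10Rik with 46.6 CPM per kb, the region shared by Sfi1, a centrosome protein gene, and the translation regulator gene Eif4enif1 with 31.2, and regions of the Speer gene family, which has many near-identical copies in mouse. Reads of such copies may be split or misplaced by the counting, which the sources used here do not describe, so their values are uncertain. Of these 24 members, 4 began in the first 3.5 Mb of a chromosome, where the mouse assembly passes from the unsequenced centromere gap into sequence, and 8 had predicted symbols only.

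The members took up 21.4 to 25.9% of the counts of a library. The share was 22.5 and 25.9% in Tregs of male VAT, 24.1 and 22.3% in those of female VAT, 22.5 and 21.4% in spleen Tregs, and 25.6 and 23.7% in CD4 cells. The male VAT libraries overlapped every other group. The difference of means was 1.04 percentage points for male over female VAT Tregs (two-sided exact permutation p = 0.667) and 2.23 points for male VAT over spleen Tregs (exact p = 0.667). It was 1.19 points for female VAT over spleen Tregs (exact p = 0.667) and -0.39 points for male VAT Tregs over CD4 cells (exact p = 1.0). With 2 libraries a group the exact test cannot go below 0.333.

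**Figure D2:**
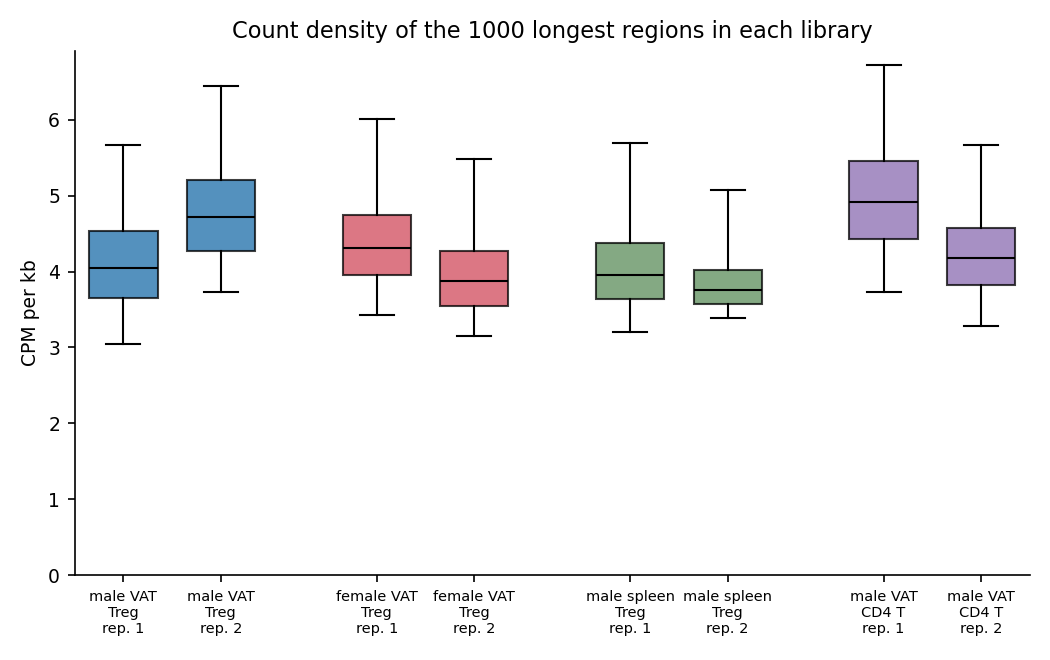
Density of the 1000 longest regions in CPM per kb in each of the 8 libraries (box, quartiles; line, median; whiskers, 5th and 95th percentiles). The medians run from 3.75 in spleen Treg replicate 2 to 4.92 in CD4 replicate 1, and the replicates of male VAT Tregs and of CD4 cells differ by as much as the groups do.

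Libraries of a group differed across the whole set. In male VAT Tregs, 963 of 1000 members were higher in replicate 2 than in replicate 1, with a median log2 difference of 0.22. In female VAT Tregs the median of replicate 2 minus replicate 1 was -0.15, in spleen Tregs -0.07 and in CD4 cells -0.22. Over all autosomal regions these medians were -0.03, 0.00, 0.00 and 0.02 in the same order of groups. The median log2 fold change over the members was 0.10 for male over female VAT Tregs, 0.17 for male VAT over spleen Tregs, 0.08 for female VAT over spleen Tregs and -0.05 for male VAT Tregs over CD4 cells, against 0.01, -0.01, 0.00 and -0.02 over all regions tested. The replicate SDs of the 2 groups compared, combined, were 0.18, 0.16, 0.11 and 0.22, which is a spread between single libraries. The whole-set differences were about as large as these SDs or smaller. The error of a difference between means of 2 libraries is smaller than such an SD and was not computed. Without male VAT Treg replicate 2, the median for male over female VAT Tregs was -0.02. Scaled on regions under 1000 bp, the medians were 0.02, 0.02, 0.02 and -0.27, and by library size alone the median for male VAT Tregs over CD4 cells was 0.08, the opposite sign.

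**Figure D3:**
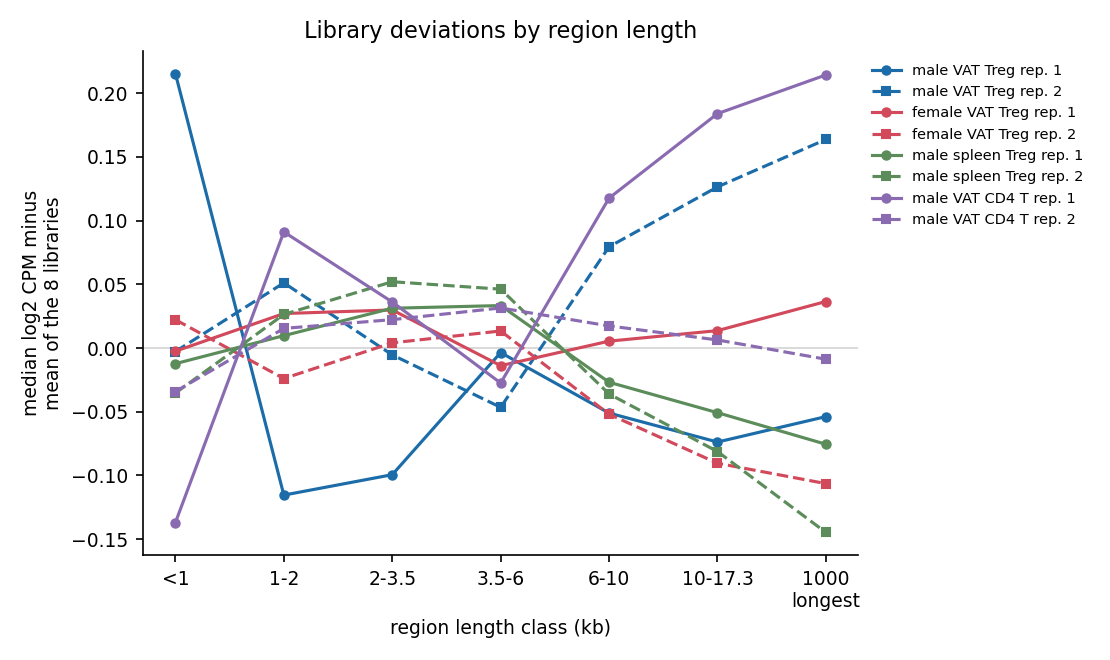
Median over the regions of each length class (horizontal axis, kb) of log2 CPM minus the mean of the 8 libraries (vertical axis), 1 line per library. In the 1000 longest regions the libraries spread from -0.14 in spleen Treg replicate 2 to 0.21 in CD4 replicate 1, and male VAT Treg replicate 2 stands at 0.16 with replicate 1 at -0.05.

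Each comparison was tested region by region with edgeR's quasi-likelihood F test on the raw counts over all 45709 regions, with Benjamini-Hochberg adjustment, and calls are regions with an adjusted p below 0.05. In this test few members were called. For male against female VAT Tregs, 0 members were called higher and 3 lower, against 2.04% higher and 1.21% lower (3.26% in all) of the regions tested. For male VAT against spleen Tregs 3 were called higher and 0 lower, against 4.64% and 2.09% (6.73% in all). For female VAT against spleen Tregs 1 was called higher and 0 lower, against 1.18% and 0.197% (1.38% in all). For male VAT Tregs against CD4 cells 3 were called higher and 5 lower, against 5.18% and 2.51% (7.69% in all). At an unadjusted p under 0.05, edgeR gave 8 higher and 8 lower members for male against female VAT, against 6.73% and 6.68% of all regions tested. For male VAT against spleen it gave 101 and 12 members (9.88% and 8.75% of all regions), for female VAT against spleen 6 and 1 (5.41% and 3.82%), and for male VAT Tregs against CD4 cells 16 and 50 (10.3% and 7.46%).

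Other tests on the same counts also called few members. For male against female VAT, limma-voom called 0 higher and 6 lower (1.93% and 1.26% of all regions tested, 3.19% in all) and DESeq2's Wald test 0 and 1 (0.774% and 0.333%, 1.11% in all). For male VAT against spleen, limma-voom called 17 higher and 3 lower (5.24% and 2.44%, 7.68% in all) and DESeq2 9 and 0 (2.43% and 0.545%, 2.98% in all). For female VAT against spleen, limma-voom called 1 higher and 0 lower (1.06% and 0.144%, 1.2% in all) and DESeq2 0 and 0 (0.54% and 0.0744%, 0.615% in all). For male VAT Tregs against CD4 cells, limma-voom called 3 higher and 7 lower (3.29% and 2.25%, 5.55% in all) and DESeq2 3 and 1 (2.74% and 1.33%, 4.07% in all).

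The share of regions called was highest under 1000 bp and low in the longest regions, with no steady fall across the classes between. For male against female VAT Tregs it was 5.06% of autosomal regions under 1000 bp, 2.00% at 3.5 to 6 kb, 0.318% from 10000 bp to the limit and 0.300% in the longest. For male VAT against spleen Tregs the same classes gave 11.5, 4.91, 1.35 and 0.300%, and for male VAT Tregs against CD4 cells 14.3, 4.77, 1.91 and 0.800%. For female VAT against spleen Tregs they were 1.88, 0.551, 0 and 0.100%. The median standard error of the male against female log2 fold change was 0.17 in the longest regions and 0.49 in those under 1000 bp. Between male and female VAT Tregs, 3 members (0.300%) differed by over 0.5 on the log2 scale, against 43.1% of regions under 1000 bp. The larger standard error of the short regions also widens their fold changes, so the size of the differences and the error of estimating them cannot be told apart here.

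**Figure D4:**
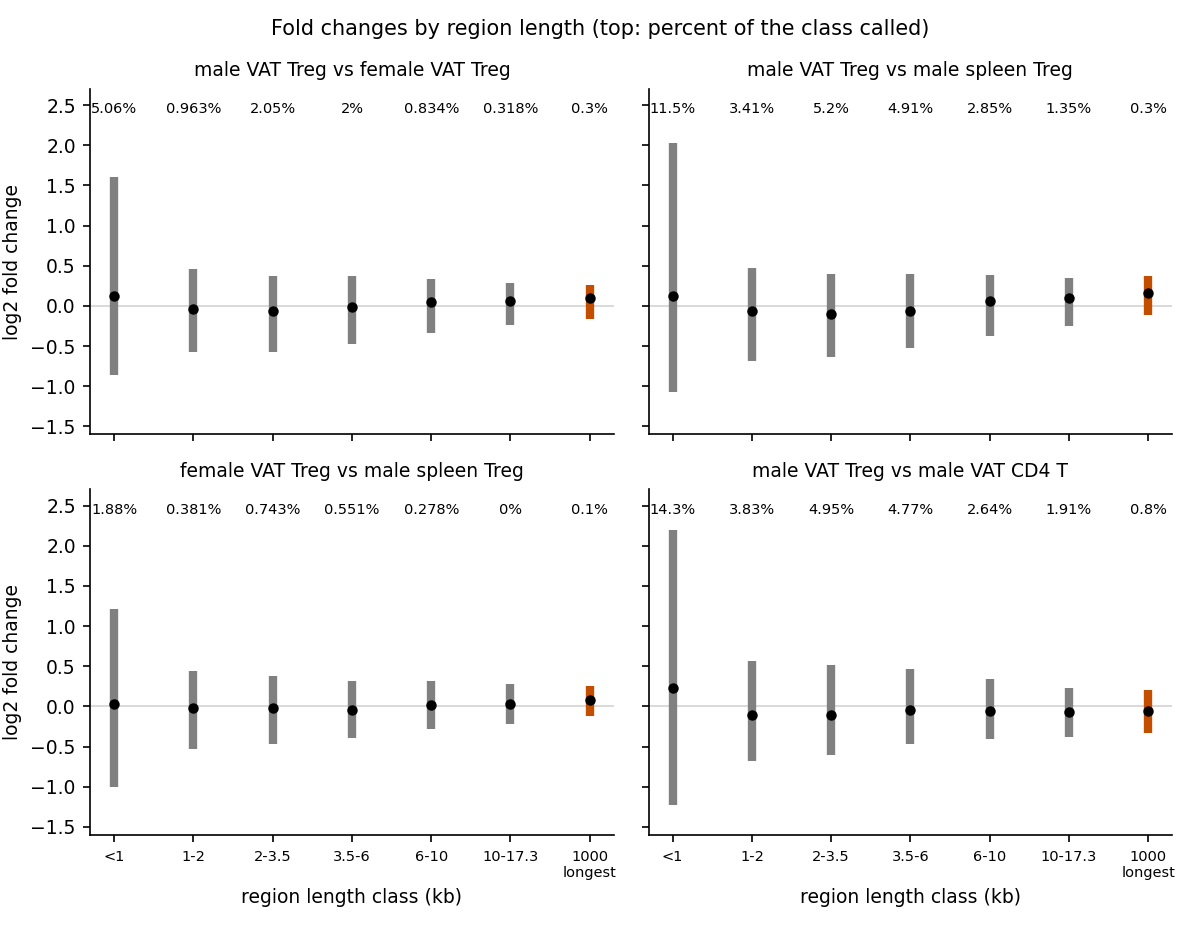
Log2 fold changes (vertical axis) in 4 comparisons by region length class in kb (horizontal axis); dots are medians, bars the 5th to 95th percentiles, the 1000 longest are orange, and the percentage above each bar is the share of the class called. In the longest regions the bars span -0.17 to 0.27 for male against female VAT Tregs, where 0.300% were called against 5.06% under 1000 bp.

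Whether the 2 libraries of a group both lay on 1 side of the other 2 was a looser measure. In male VAT against spleen Tregs, 477 members had both male VAT libraries above both spleen libraries and 24 had both below, against 22.7% and 23.1% of all regions tested. In female VAT against spleen Tregs, 311 were above and 63 below, against 20.9% and 21.0%. In male against female VAT Tregs, 230 were above and 35 below, against 20.8% and 20.5%. In male VAT Tregs against CD4 cells, 55 were above and 135 below, against 21.0% and 20.7%. In each comparison the side with more members matched the sign of the whole-set median given above, but the counts did not follow the size of the medians. The comparisons share libraries.

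The member at Junb was called in both comparisons with spleen. It is a 19211 bp region (chr8:84975879-84995090) also assigned to Prdx2 (a peroxiredoxin), Rnaseh2a (the catalytic subunit of ribonuclease H2) and Hook2 (a microtubule linker). Of the 4 assigned genes, only Junb and Hook2 have a transcription start in the region, and its density was 8.80 CPM per kb. It had 240.4 and 152 CPM in Tregs of male VAT, 202 and 183 in those of female VAT, 126 and 132 in spleen Tregs, and 148 and 169 in CD4 cells. All 4 fat Treg libraries stood above both spleen libraries, while male VAT and CD4 cells overlapped. The log2 fold change was 0.61 ± 0.17 for male VAT over spleen Tregs (edgeR, adjusted p = 0.008) and 0.58 ± 0.17 for female VAT over spleen Tregs (edgeR, adjusted p = 0.041), where ± is the standard error. Without male VAT Treg replicate 1 the first was 0.23 (adjusted p = 0.482), and leaving out either spleen library also ended the call, at 0.57 and 0.64 (adjusted p = 0.168 and 0.0922). The second ended without any 1 of its 4 libraries, at 0.51 to 0.65. The Tnfrsf1b member (chr4:145235858-145257839) had 192 and 135 CPM in Tregs of male VAT, 139 and 135 in those of female VAT, 125 and 122 in spleen Tregs, and 117 and 151 in CD4 cells. Its log2 fold change for male VAT over spleen Tregs was 0.41 ± 0.17, and it was not called (edgeR, adjusted p = 0.128).

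Of the other members called higher in male VAT than in spleen Tregs, both overlap their assigned genes. The region at Tcerg1l (chr7:138334568-138352713), a gene related to a transcription elongation regulator, had 86.4 and 109.8 CPM in male VAT Tregs and 66.9 and 67.3 in spleen Tregs (log2 fold change 0.55 ± 0.17; edgeR, adjusted p = 0.026). The region at Pdzrn3 (chr6:101169369-101210956), a ubiquitin ligase gene, had 189.9 and 204 CPM in male VAT Tregs and 137 and 143 in spleen Tregs (0.49 ± 0.16; edgeR, adjusted p = 0.046). In both, the spleen libraries were close together and clearly below male VAT Tregs. Tregs of female VAT had 91.4 and 84.3 CPM at Tcerg1l and 169 and 144 at Pdzrn3. CD4 cells had 112 and 97.8 CPM at Tcerg1l and 198 and 154 at Pdzrn3, and overlapped male VAT Tregs in both. Each call ended without male VAT Treg replicate 2 (0.36 and 0.44). Without spleen Treg replicate 1 or 2 the calls also ended, at 0.54 and 0.55 for Tcerg1l and 0.46 and 0.52 for Pdzrn3.

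Called lower in Tregs of male than of female VAT were the members at Plxna1, Pisd-ps2 and Vmn1r2. Plxna1 encodes a semaphorin receptor, and its region (chr6:89332090-89354335) had 61.5 and 76.9 CPM in Tregs of male VAT, 108 and 101 in those of female VAT, 105 and 79.5 in spleen Tregs, and 114 and 85.5 in CD4 cells. Both male VAT libraries were the lowest of the 8. The log2 fold change was -0.60 ± 0.17 against female VAT Tregs (edgeR, adjusted p = 0.022) and -0.53 ± 0.17 against CD4 cells (edgeR, adjusted p = 0.034). The regions near the pseudogene Pisd-ps2 (chr17:3004371-3038298) and assigned to the vomeronasal receptor gene Vmn1r2 (chr4:3049937-3071950, 100133 bp from that gene) lie at the start of their chromosomes. The first had 381 and 496 CPM in Tregs of male VAT, against 625 and 662 in those of female VAT (-0.55 ± 0.16; edgeR, adjusted p = 0.029). Male spleen Tregs had 656 and 468 CPM there and male CD4 cells 546 and 503. The second had 167 and 212 CPM in Tregs of male VAT, against 269.6 and 274 in those of female VAT (-0.52 ± 0.16; edgeR, adjusted p = 0.047). Male spleen Tregs had 263 and 216 CPM at the second and male CD4 cells 248 and 240. All 3 calls against female VAT Tregs ended without male VAT Treg replicate 1 (-0.44, -0.37 and -0.36). They also ended without either female library, where the fold changes stayed about as large: without female VAT Treg replicate 1 they were -0.55, -0.59 and -0.53, and without replicate 2 -0.64, -0.51 and -0.51. The Plxna1 call against CD4 cells ended without male VAT Treg replicate 1 (-0.37) and without CD4 replicate 1 (-0.31).

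Against CD4 cells, the Mir101c region on chromosome 9 showed the largest difference among the members. It had 12418 and 18096 CPM in Tregs of male VAT, 19785 and 20580 in those of female VAT, 22959 and 12069 in spleen Tregs, and 34650 and 35635 in CD4 cells. Both CD4 libraries were the highest of the 8, and the replicates of spleen Tregs lay far apart. The log2 fold change for male VAT Tregs over CD4 cells was -1.20 ± 0.17 (edgeR, adjusted p = 1.2e-09). The call held without each of the 4 libraries in turn and was lost with limma on the deposited log2 values (-1.23, adjusted p = 0.109). The 2 deepest libraries, with 15189119 and 15798875 counts, had the lowest shares of counts in this region, 1.29 and 1.28%, and the part of depth in the difference was not tested. The region lies at the start of its chromosome and is 41036 bp long, while the assigned gene is 75 bp long. Its repeat content could not be looked up, so its values are uncertain and are not tied to the miRNA gene. The dense region at Sfi1 and Eif4enif1 (chr11:3180888-3205567) had 584 and 739.8 CPM in male VAT Tregs against 936 and 956 in CD4 cells (-0.52 ± 0.16; edgeR, adjusted p = 0.028), and this call ended without male VAT Treg replicate 1 (-0.35) and without either CD4 library (-0.53 and -0.50).

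The remaining calls against CD4 cells were in sparse regions. A pair of regions assigned to Tssc1, an endosomal trafficking gene, was higher in male VAT Tregs. The region overlapping the gene (chr12:28853497-28879854) had 119 and 119 CPM in male VAT Tregs and 85.5 and 77.0 in CD4 cells (0.55 ± 0.17; edgeR, adjusted p = 0.022), and the one 135916 bp away from the gene (chr12:29003410-29022959) had 96.5 and 98.5 in male VAT Tregs and 69.1 and 63.3 in CD4 cells (0.56 ± 0.17; edgeR, adjusted p = 0.022). In each the male VAT replicates nearly coincided. The calls ended without CD4 replicate 1 (0.62 in both) and without CD4 replicate 2 (0.47 and 0.49). Other members assigned to Tssc1 were not called against CD4 cells. Among them, chr12:28829014-28851801, which overlaps the gene, had 0.06 (edgeR, adjusted p = 0.927) and chr12:28944801-28982384 had 0.38 (edgeR, adjusted p = 0.164). A region 3072 bp from Zfp385b, a zinc finger gene (chr2:77357673-77407550), had 207 and 248 CPM in male VAT Tregs and 162 and 163 in CD4 cells (0.48 ± 0.16; edgeR, adjusted p = 0.046), and lost its call without male VAT Treg replicate 2 (0.35) and without either CD4 library (0.48 and 0.49). The region near Igfbp5 (chr1:72894182-72914087), an insulin-like growth factor binding protein gene, is the sparsest member at 3.07 CPM per kb and had 42.1 and 55.6 CPM in male VAT Tregs and 74.9 and 65.9 in CD4 cells (-0.53 ± 0.18; edgeR, adjusted p = 0.038). The region assigned to D530049I02Rik (chr1:73217527-73238036), a gene of unknown role 160932 bp away, had 58.5 and 71.1 CPM in male VAT Tregs and 113 and 74.0 in CD4 cells (-0.52 ± 0.17; edgeR, adjusted p = 0.037), so that CD4 replicate 1 set its difference: without it the log2 fold change was -0.20. The Igfbp5 call ended without male VAT Treg replicate 1 (-0.34) and without either CD4 library (-0.44 and -0.62), and the D530049I02Rik call also without male VAT Treg replicate 1 (-0.39).

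**Figure D5:**
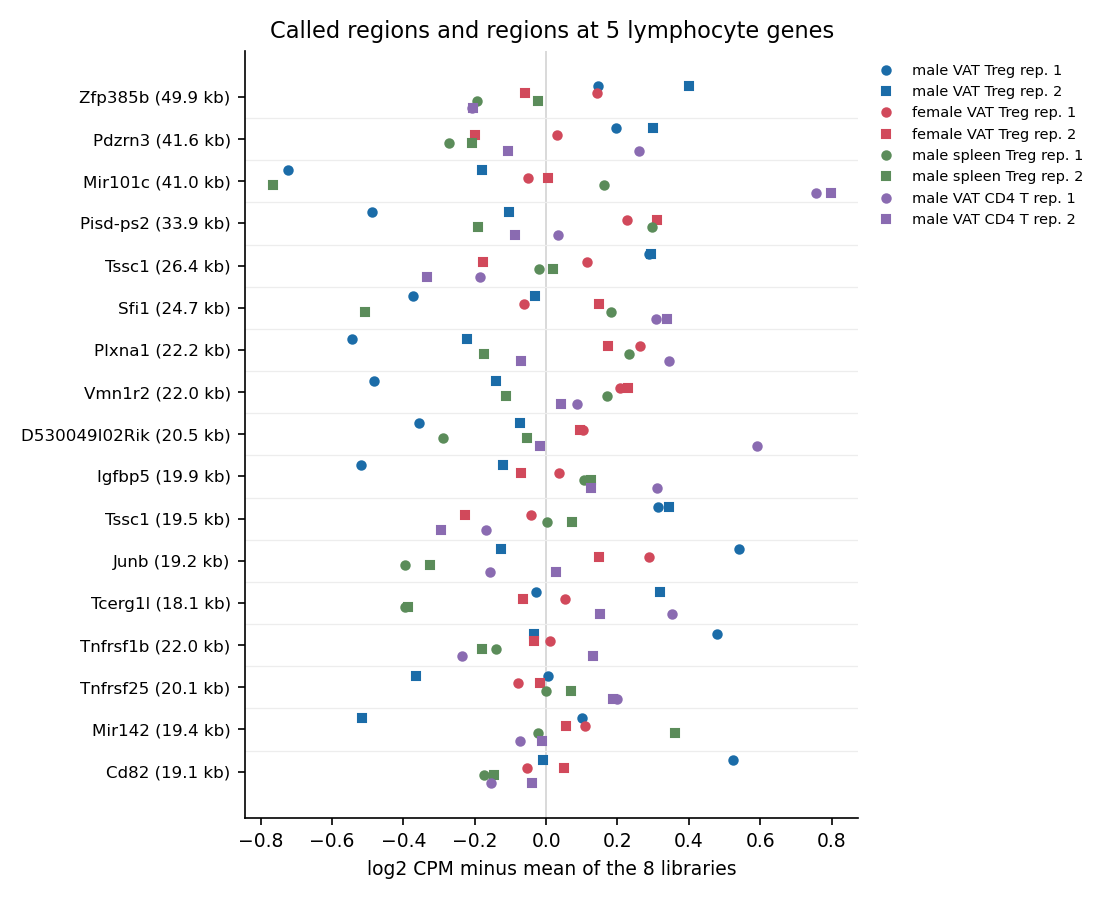
Log2 CPM minus the mean of the 8 libraries (horizontal axis) in every library for the 13 members called in any comparison, longest first, and then for 4 members at lymphocyte genes (Tnfrsf1b, Tnfrsf25, Mir142 and Cd82); colours are groups, circles replicate 1 and squares replicate 2. Both CD4 libraries lie highest at Mir101c, both male VAT Treg libraries lowest at Plxna1, and both spleen libraries lowest at Junb.

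The 15 calls fell on 13 members, 2 of which (Junb and Plxna1) were called in 2 comparisons, and 4 of the 13 began in the first 3.5 Mb of a chromosome, where 7 of the 1000 members lie. The other 3 members there were not called. At Hnf4g the log2 fold change of male over female VAT Tregs was -0.48 (edgeR, adjusted p = 0.081), at Gm11783 it was -0.32 (adjusted p = 0.403) and at Ppp1r14c 0.08 (adjusted p = 0.914). No called member kept its call under every alternative processing, and none changed sign.

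The member at Mir142 (chr11:87745877-87765246) is also assigned to Supt4a and Bzrap1 and holds the miR-142 sequences shown above. It had 112 and 72.8 CPM in Tregs of male VAT, 112 and 108 in those of female VAT, 103 and 134 in spleen Tregs, and 99.0 and 103 in CD4 cells. The male VAT replicates lay on both sides of CD4 cells, and male VAT Treg replicate 2 was the lowest of the 8. It was not called in any comparison, with a log2 fold change of -0.36 ± 0.17 for male VAT over spleen Tregs (edgeR, adjusted p = 0.215), -0.25 ± 0.17 for male over female VAT Tregs (edgeR, adjusted p = 0.562) and -0.13 ± 0.17 for male VAT Tregs over CD4 cells (edgeR, adjusted p = 0.801).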

How the data were processed

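ATAC-seq counts of 8 libraries in 4 groups of 2 were used. Raw counts, not normalised, were deposited as 1 table covering all regions and libraries, per the file headers. They also deposited log2 values per library, named log2 CPM per the file headers. Tested on the files, these are log2 CPM with 0.5 added and a constant offset per library, and they hold 890 of the 1000 members. The tools limma, featureCounts, HOMER 4.9 and Subread 1.6.2 and the build GRCm38 (mm10) are named in the submitters' processing notes. How regions were called, merged or assigned to genes is not given in the sources used here, nor is whether starts count from 0 or 1. The table's 62205 entries are 46624 distinct regions, which were kept once each.

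Members were ranked by length alone, but the choice of this set and of the gene lists was made with earlier results of these data known. Regions on chromosomes 1 to 19, X and Y that passed edgeR's filterByExpr (45709) were scaled by TMM and fitted with edgeR 4.0.16 (R 4.3.3), all 8 libraries in 1 quasi-likelihood fit with 4 residual degrees of freedom. P-values were adjusted by Benjamini-Hochberg over all regions kept. The code was tested on simulated data. Alternatives included DESeq2 1.42.0, limma 3.58.1, other scalings and each library left out. Counting precision covers counting error only, as reads carry no molecular identifiers.

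Named by rule were the 12 longest members, the 5 densest and 5 sparsest, the 8 symbols with most members, up to 6 called members per direction whose groups did not overlap, called list genes, 12 Treg and T cell genes and the 3 regions on each side of the limit. The members at Mir142, Tnfrsf1b, Tnfrsf25 and Cd82, those in the first 3.5 Mb of a chromosome and the library deviations were singled out after values were seen. Genes, promoters and miRNAs come from RefSeq tables on GRCm38.p6, in which 18545 of 19699 gene identifiers were found. The labels do not say that replicate numbers mark shared mice or days.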

Additional observations from a re-analysis of the deposited data

How the results depend on the processing

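No call changed sign under any alternative, but the counts of called members moved under most. For male against female VAT Tregs, the 3 lower calls became 0 with TMM from regions under 1000 bp, 1 with DESeq2, 6 with limma-voom, 0 with only the 4 libraries compared, 0 with limma on the deposited log2 values, 0 to 6 with a library left out, and 1 and 7 over the 500 and the 2000 longest. For male VAT against spleen Tregs, the 3 higher calls became 5 by library size alone, 0 with TMM from short regions, 9 with DESeq2, 17 with limma-voom, 1 with the 4 libraries, 0 with the deposited values, 0 to 9 with a library left out, and 1 and 10 over the 500 and 2000 longest. The 0 lower calls became 1 by library size, 3 with limma-voom, 10 with TMM from the longest regions, 0 to 8 with a library left out and 7 over the 2000 longest. For female VAT against spleen Tregs, the 1 higher call became 3 with the 4 libraries and 0 by library size, with TMM from short or from the longest regions, with DESeq2, with the deposited values, with any library left out (0 to 0) and over the 500 longest. For male VAT Tregs against CD4 cells, the 3 higher calls became 17 by library size, 0 with TMM from short regions, 0 with the 4 libraries, 0 with the deposited values, 8 with TMM from the longest regions, 0 to 5 with a library left out, and 1 and 13 over the 500 and 2000 longest. The 5 lower calls became 1, 14, 1, 0 and 2 under these 5 settings, 1 with DESeq2, 1 to 45 with a library left out, and 1 and 16 over the 500 and 2000 longest. The 45 arose without male VAT Treg replicate 2. The median log2 fold change for male VAT over spleen Tregs was -0.0101 with TMM from the longest regions, which sets it near 0 by construction. The causes of the other changes were not tested.

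With the replicate number as a block (replicate block), the counts were 0 higher and 0 lower for male against female VAT Tregs, 1 and 0 for male VAT against spleen, 0 and 0 for female VAT against spleen, and 0 and 1 for male VAT Tregs against CD4 cells. The numbers are not known to pair libraries: with 2 libraries a group, deviations of same-numbered libraries correlated at -0.171 to 0.0814. Scaling on the longest regions, leaving out the chromosome 9 region (which gave 0 and 3, 3 and 0, 1 and 0, and 3 and 4 calls) and every median were added after the data were seen. Where a library was left out, the lone library of its group was assumed to vary like the other groups. The lowest count of a member was 231, and every comparison rests on 2 libraries a group. The part of depth and of library number in the calls was not tested.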

Other observations

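In male VAT Tregs, 37 members were higher in replicate 1 than in replicate 2, against the 963 that were lower there, and the 5 farthest from the rest were at genes known from lymphocytes. These 5 were picked by their values, so the following is a description with no test. The log2 difference of replicate 2 minus replicate 1 was -0.66 at Junb, -0.61 at the blood cell miRNA locus Mir142, -0.53 at Cd82 (a tetraspanin), -0.51 at Tnfrsf1b and -0.37 at the region of Tnfrsf25 (death receptor 3, a costimulatory receptor of Tregs) and Espn. The member that came next, at Thumpd2, differed by -0.19. The Cd82 region had 148 and 103 CPM in Tregs of male VAT, 99.6 and 107 in those of female VAT, 91.7 and 93.4 in spleen Tregs, and 92.8 and 101 in CD4 cells. The Tnfrsf25 region had 92.6 and 71.8 CPM in Tregs of male VAT, 87.4 and 91.3 in those of female VAT, 92.4 and 96.8 in spleen Tregs, and 106 and 105 in CD4 cells.

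Of the 37 members, 17 (45.9%) held a transcription start, against 250 of the other 963 (26.0%), while the median density was 4.27 CPM per kb in the 37 and 4.19 in the others. Male VAT Treg replicate 1 also put 5.55% of its counts into regions under 1000 bp, the most of the 8 libraries, while replicate 2 put 4.22% there and the remaining libraries at most 4.37%, and its share in the members was 22.5%, against 25.9% in replicate 2. The part of that difference between libraries in the values of the 5 members was not tested.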
